A study of Mus musculus with 25 samples.

Results

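The mRNA levels of 35 genes of pyruvate metabolism and the tricarboxylic acid (TCA) cycle were examined in white adipose tissue of mice on a normal or a high-fat diet. The genes were chosen by function and symbol from the 54752 genes counted, and all 35 passed the filter on low counts in every comparison. They are the mitochondrial pyruvate carrier (*Mpc1* and *Mpc2*), the pyruvate dehydrogenase complex (*Pdha1*, *Pdhb*, *Pdhx*, *Dlat* and *Dld*), its kinases (*Pdk1* to *Pdk4*) and phosphatases (*Pdp1* and *Pdp2*), pyruvate carboxylase (*Pcx*), the mitochondrial malic enzymes (*Me2* and *Me3*), and the enzymes of the cycle from citrate synthase (*Cs*) to the malate dehydrogenases (*Mdh1* and *Mdh2*). *Aco1*, *Idh1* and *Mdh1* are the cytosolic counterparts of enzymes of the cycle. RNA was sequenced from epididymal (eWAT) and inguinal (iWAT) white adipose tissue of male C57BL/6N mice, as 14 and 11 libraries. Wild type mice on a normal chow diet (ND) gave 4 eWAT and 3 iWAT libraries. Wild type mice on a high-fat diet (HFD, 60% of calories from fat) gave 5 of each depot, and HFD-fed *Acod1*-/- mice gave 5 eWAT and 3 iWAT libraries. Feeding started at 5 weeks of age and lasted 16 weeks, except that the labels give 17 and 18 weeks for replicates 2 and 3 of the iWAT *Acod1*-/- group. The *Acod1* allele is disrupted in every cell of the animal. Wild type and *Acod1*-/- mice were littermates from heterozygous parents. ND-fed *Acod1*-/- mice were not analysed here, so the genotype comparison holds for the HFD alone.

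Pyruvate made by glycolysis enters mitochondria through the pyruvate carrier, where the pyruvate dehydrogenase complex turns it into acetyl-CoA and pyruvate carboxylase turns it into oxaloacetate. The kinases switch the dehydrogenase complex off by phosphorylation and the phosphatases switch it on again. The TCA cycle oxidizes acetyl-CoA and passes electrons to the respiratory chain, in part directly through succinate dehydrogenase, which is also complex II of that chain. White adipocytes use the same steps to export citrate for fatty acid synthesis and to supply glycerol for triglycerides, and *Acod1* encodes the enzyme that diverts the intermediate cis-aconitate to itaconate, mostly in activated macrophages.

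Libraries held 31405063 to 52335623 reads counted on genes. Levels are given as normalized FPKM, the counts per kilobase of cDNA and per library size, with library sizes scaled by TMM over the 25 libraries, and libraries are listed in the order of their numbers. Counts of *Acod1* were between 0 and 9 in every library, wild type included, so they do not check the genotype. The sample numbers in the column headers start with either of 2 prefixes, and libraries that share a prefix are called a series here. Neither the headers nor the labels say what the prefix marks. All ND-fed libraries are in the second series together with 4 of the 18 HFD-fed ones, so that diet and series nearly coincide. Some libraries stood apart over many members at once. Of the 35 genes, eWAT HFD wild type replicate 1 was the lowest of its group in 27, eWAT HFD *Acod1*-/- replicate 2 the highest in 23, eWAT ND replicate 4 the highest in 27, iWAT ND replicate 3 the highest in 30 and iWAT ND replicate 1 the lowest in 28. Markers of other cell types were present too. Summed epididymis epithelium markers reached 4934 normalized FPKM in eWAT ND replicate 2, 691 in eWAT *Acod1*-/- replicate 5 and 359.8 in replicate 1 of that group. In iWAT, summed skeletal muscle markers reached 3946 in ND replicate 1, and summed brown adipocyte markers 1548 in ND replicate 3.

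On HFD, more members fell than rose in both depots. In eWAT, edgeR's quasi-likelihood test called 12 of the 35 lower and 1 higher at an adjusted p under 0.1, against 26.9% of all genes lower and 24.8% higher. The median log2 fold change of the members was -0.21, against -0.04 over all genes tested. In iWAT, 15 were called lower and 3 higher, with a background of 24.2% lower and 25.9% higher, and the median was -0.37 against 0.00. The share of members called was thus below that of all genes in eWAT and near it in iWAT, and in both depots the called members fell more often than they rose. Every HFD library lay below every ND library for 9 of the 35 in eWAT (18.0% of all genes) and for 11 of the 35 in iWAT (24.1%), shares not far above those of all genes. The 8 genes called lower in both depots were *Pdha1*, *Pdhb*, *Pdk2*, *Idh3b*, *Ogdh*, *Dlst*, *Suclg2* and *Sdha*, which are 66.7% of the eWAT and 53.3% of the iWAT calls, and *Idh1* was called higher in both. The overlap between depots over all genes was not computed, so these percentages cannot be read as particular to the members. With the series as a term of the fit, 11 members were called in iWAT, 3 higher and 8 lower (3163 and 2587 of 14801 genes). *Pdha1*, *Ogdh*, *Dlst* and *Sdha* were among those no longer called there (adjusted p = 0.18, 0.28, 0.17 and 0.14), and so were *Dld*, *Pdk3* and *Pdhb* in eWAT.

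On HFD, *Acod1* loss went with higher levels of members in eWAT. In HFD-fed *Acod1*-/- against HFD-fed wild type mice, 10 of 35 were called higher in eWAT and none lower, against 9.13% of all genes higher and 10.8% lower, and the median log2 fold change was 0.41 against 0.04. The estimate was above 0 for 30 of the 35, and for 7 of them every *Acod1*-/- library was above every wild type library (2.81% of all genes). The 10 were *Pdha1*, *Pdhx*, *Dld*, *Pdk2*, *Aco1*, *Idh2*, *Dlst*, *Suclg2*, *Sdha* and *Fh1*, with log2 fold changes from 0.42 to 0.87. Of these, *Pdha1*, *Dld*, *Pdk2*, *Aco1*, *Dlst*, *Suclg2* and *Sdha* were also called lower on HFD in wild type mice. The diet and genotype comparisons share the HFD-fed wild type libraries. Leaving out the library that was lowest in most members, HFD wild type replicate 1, reduced the calls by genotype to 4, whereas leaving out *Acod1*-/- replicate 5 gave 20 and leaving out ND replicate 4 gave 16. The calls over all genes moved too. In the same order, they were 703 higher and 1006 lower of 14933, 2020 and 2218 of 14952, and 1219 and 1507 of 14927. Among the HFD libraries of the first series alone, 16 were called higher and 1 lower (1633 and 2160 of 14672 genes). The 4 that were called without HFD wild type replicate 1 were *Pdk2*, *Aco1*, *Idh2* and *Dlst*. In iWAT, none of the 35 was called by genotype with edgeR (0.00% of all genes), 3 had an unadjusted p under 0.05, and DESeq2 called 2. Over all 14801 genes, DESeq2 called 440 higher and 632 lower. Without iWAT *Acod1*-/- replicate 3, which is also the only one of that group in the second series, 4 members were called higher and 1 lower (1401 and 1263 of 14851 genes). With the HFD libraries of the first series alone, 3 were called higher and 1 lower (1026 and 1131 of 14429 genes). Whether the effect of genotype differed between depots was tested as an interaction, with the libraries of both depots taken as independent, and no member was called (0.00665% of all genes, 2 members at an unadjusted p under 0.05, and 1 called without iWAT *Acod1*-/- replicate 3). Without that library the interaction called 161 genes higher and 230 lower of 15071.

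**Figure D1:**
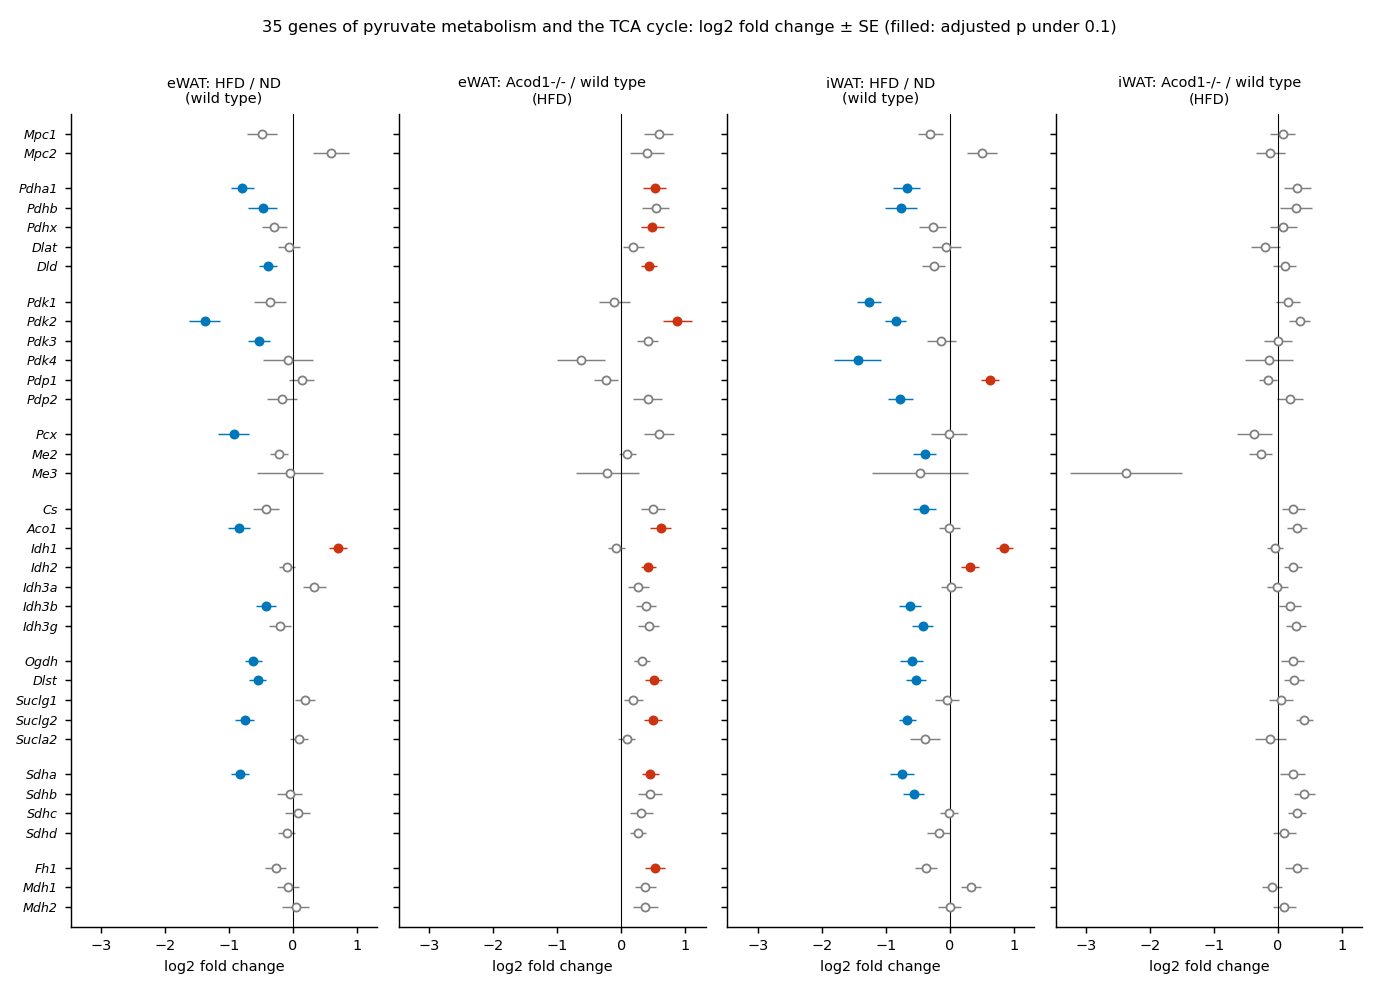
Log2 fold change (x axis) ± SE of each of the 35 members (y axis, ordered by role) for the effect of HFD in wild type mice and of *Acod1* loss on HFD, in eWAT and iWAT, with filled symbols for an adjusted p under 0.1 (red higher, blue lower). In eWAT, 12 members fell on HFD and 10 rose with *Acod1* loss, and in iWAT 15 fell on HFD and none passed the threshold by genotype.

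Markers of other cells moved with the same groups. For scale, 26.9% of all genes were called lower and 24.8% higher on HFD in eWAT, and 24.2% and 25.9% in iWAT. By genotype in eWAT, 9.13% were called higher and 10.8% lower. All 10 macrophage markers were called higher on HFD and lower by genotype in eWAT, where their summed level was 328 to 597 normalized FPKM on ND, 1011 to 3229 in wild type mice on HFD and 310.3 to 989 with *Acod1* loss. Of 9 adipocyte markers, 5 fell and 1 rose on HFD in eWAT, and 5 rose and none fell by genotype, with sums of 13791 to 20887, 6060 to 14758 and 12195 to 20354. HFD wild type replicate 1, the lowest library of its group in most members, had the lowest adipocyte sum and the highest macrophage sum. In iWAT, 5 of 6 tested brown adipocyte markers and 6 of 6 B cell and lymph node markers fell on HFD, the latter from sums of 319 to 545 on ND to 1.19 to 32.9. Also in iWAT, 9 of 10 skeletal muscle markers were called lower on HFD. Their sums on ND were 3946, 5.70 and 168 in replicates 1, 2 and 3, however. Replicate 2 lay below every HFD-fed wild type library (21.7 to 224). Of 5 fibroblast and progenitor markers, 4 rose on HFD in each depot and 2 fell by genotype in eWAT. Their sums in eWAT were 44.8 to 76.8 on ND, 108 to 211 on HFD in wild type and 48.3 to 109 with *Acod1* loss. In iWAT the sums were 34.8 to 60.9, 116 to 207 and 108 to 135. In eWAT on HFD, 3 of 5 mesothelium markers and 4 of 5 mammary and skin epithelium markers fell. In iWAT, 8 of 10 macrophage markers rose on HFD, and 4 of 9 adipocyte markers rose and 1 fell. Brown adipocyte sums in HFD-fed iWAT were 100.1 to 174 in wild type and 214 to 623 with *Acod1* loss. Macrophage sums there were 381 to 944 and 241 to 343. Fewer cells of a type and less RNA per cell cannot be told apart in bulk tissue, and the part of these cells in the results was not tested. Without the 3 eWAT libraries with epididymis markers, 14 members were called by diet and 19 by genotype, 18 of the latter higher. Over all 14768 genes of that fit, 3433 were called higher and 3332 lower by diet, and 1802 and 2073 by genotype.

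The pyruvate carrier subunits were not called by diet or genotype in either depot. *Mpc1* and *Mpc2* form the carrier together, yet their estimates on HFD lay on opposite sides of 0, at -0.48 and 0.60 in eWAT and at -0.30 and 0.51 in iWAT. Adjusted p-values of *Mpc2* were 0.101 and 0.104. In the comparison of eWAT from HFD-fed *Acod1*-/- with ND-fed wild type mice, *Mpc2* was called higher (log2 fold change 0.996 ± 0.28, adjusted p = 0.033).

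In the pyruvate dehydrogenase complex, *Pdha1* and *Pdhb* encode the subunits that decarboxylate pyruvate. *Pdha1* fell on HFD in eWAT (log2 fold change -0.79 ± 0.18, adjusted p = 0.0044) and in iWAT (log2 fold change -0.67 ± 0.21, adjusted p = 0.023), and it rose with *Acod1* loss in eWAT (log2 fold change 0.52 ± 0.17, adjusted p = 0.065). *Pdhb* fell in iWAT (log2 fold change -0.76 ± 0.25, adjusted p = 0.031) and narrowly passed the threshold in eWAT (adjusted p = 0.0984), a call kept under 9 of 23 alternatives. In eWAT, *Dld* levels were 68.2, 66.7, 87.5 and 97.3 in the ND libraries, 52.4, 58.9, 64.5, 67.3 and 62.3 in the wild type HFD libraries and 77.5, 102, 78.8, 78.6 and 75.5 in the *Acod1*-/- libraries. *Dld*, the dihydrolipoamide dehydrogenase shared with the oxoglutarate dehydrogenase complex, fell on HFD by 0.39 on the log2 scale (SE 0.14, adjusted p = 0.036), with overlapping groups, and all *Acod1*-/- libraries were above all HFD-fed wild type libraries (log2 fold change 0.43 ± 0.13, adjusted p = 0.046). The iWAT libraries held *Dld* at 73.4, 85.6 and 125 (ND), 69.2, 77.7, 84.4, 84.98 and 75.2 (HFD wild type) and 73.8, 82.8 and 99.2 (HFD *Acod1*-/-), and it was not called there by diet (log2 fold change -0.25 ± 0.18, adjusted p = 0.29). *Dlat*, the acetyltransferase core, was not called by diet or genotype in either depot, with estimates from -0.20 to 0.19. *Pdhx*, which anchors *Dld* to that core, was called only by genotype in eWAT (log2 fold change 0.49 ± 0.18, adjusted p = 0.093). That call was kept under 11 of 24 alternatives.

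Of the kinases, *Pdk2*, which is broadly expressed, fell on HFD in both depots and rose with *Acod1* loss in eWAT. *Pdk2* in eWAT was measured at 31.7, 40.3, 46.9 and 50.6 on ND, at 13.1, 16.7, 17.02, 14.2 and 20.4 on HFD in wild type and at 32.9, 23.6, 44.2, 32.1 and 16.4 on HFD with *Acod1* loss. The groups on ND and on HFD in wild type did not overlap (log2 fold change -1.38 ± 0.24, adjusted p = 0.00093), and *Acod1*-/- replicate 5 alone lay within the wild type HFD range (log2 fold change 0.87 ± 0.23, adjusted p = 0.026). In iWAT, *Pdk2* levels were 34.2, 29.4 and 49.6 in the ND libraries, 24.1, 20.8, 20.97, 17.2 and 19.98 in the wild type HFD libraries and 27.1, 25.3 and 26.8 in the *Acod1*-/- libraries, again with no overlap between the diets (log2 fold change -0.84 ± 0.16, adjusted p = 0.0022). *Pdk4* is known for its induction by fasting and fatty acids and was the most abundant kinase mRNA in 5 of the 6 groups by median, all but HFD-fed *Acod1*-/- eWAT. *Pdk4* in iWAT was measured at 181, 109 and 190.3 on ND, at 115, 41.5, 45.7, 53.7 and 34.2 on HFD in wild type and at 41.3, 45.2 and 72.2 on HFD with *Acod1* loss. It fell on HFD there (log2 fold change -1.44 ± 0.37, adjusted p = 0.0097), and HFD replicate 1 was the only HFD-fed wild type library within the ND range. The eWAT libraries held *Pdk4* at 55.98, 36.9, 53.1 and 44.3 (ND), 79.4, 38.5, 33.6, 41.1 and 32.6 (HFD wild type) and 24.9, 10.5, 19.1, 32.7 and 58.04 (HFD *Acod1*-/-). Neither comparison was called in eWAT (-0.08 by diet with adjusted p = 0.89, -0.63 by genotype with adjusted p = 0.28), although without *Acod1*-/- replicate 5 the genotype estimate was -1.06 (adjusted p = 0.036).

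*Pdk1*, a kinase known as a target of hypoxia signalling, had the smallest adjusted p of the 35 by diet in iWAT. In iWAT, *Pdk1* levels were 8.68, 12.2 and 11.3 in the ND libraries, 4.67, 4.63, 4.16, 4.28 and 4.12 in the wild type HFD libraries and 5.18, 6.55 and 3.18 in the *Acod1*-/- libraries. Every HFD-fed wild type library was below every ND library (log2 fold change -1.26 ± 0.18, adjusted p = 0.00051). *Pdk1* in eWAT was measured at 3.89, 9.74, 4.99 and 7.54 on ND, at 6.92, 5.96, 4.69, 3.78 and 4.03 on HFD in wild type and at 4.15, 5.90, 5.17, 3.82 and 4.56 on HFD with *Acod1* loss, with overlapping groups (log2 fold change -0.36 ± 0.25, adjusted p = 0.25). The effect of diet differed between the depots for *Pdk1* (eWAT minus iWAT log2 fold change 0.93 ± 0.34, adjusted p = 0.056) and for *Pdk4* (eWAT minus iWAT log2 fold change 1.38 ± 0.58, adjusted p = 0.093), in a comparison that called 3 members and 29.0% of all genes. The count was 1 without eWAT ND replicate 3, 6 without eWAT *Acod1*-/- replicate 2 and 5 without iWAT HFD wild type replicate 1. In the same order, 2005 genes were called higher and 2017 lower of 15056, 2223 and 2335 of 15064, and 2103 and 2121 of 15041. *Pdk3* was low in every group, at 2.31 to 7.03 normalized FPKM, and fell on HFD in eWAT (log2 fold change -0.53 ± 0.17, adjusted p = 0.025). Of the phosphatases, *Pdp1* rose on HFD in iWAT (log2 fold change 0.63 ± 0.14, adjusted p = 0.0046) while *Pdp2* fell (log2 fold change -0.77 ± 0.20, adjusted p = 0.0096), and neither was called in eWAT. Summed over the 4 kinases, levels were 154 to 254 on ND and 62.4 to 146 in HFD-fed wild type mice in iWAT. The share of *Pdk2* in eWAT was 32.3% to 46.5% on ND and 12.7% to 32.5% on HFD in wild type mice. In iWAT it was 15.02% to 19.6% on ND and 16.5% to 32.00% on HFD, with overlapping groups and a higher mean on HFD. This share was chosen after its values were seen.

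**Figure D2:**
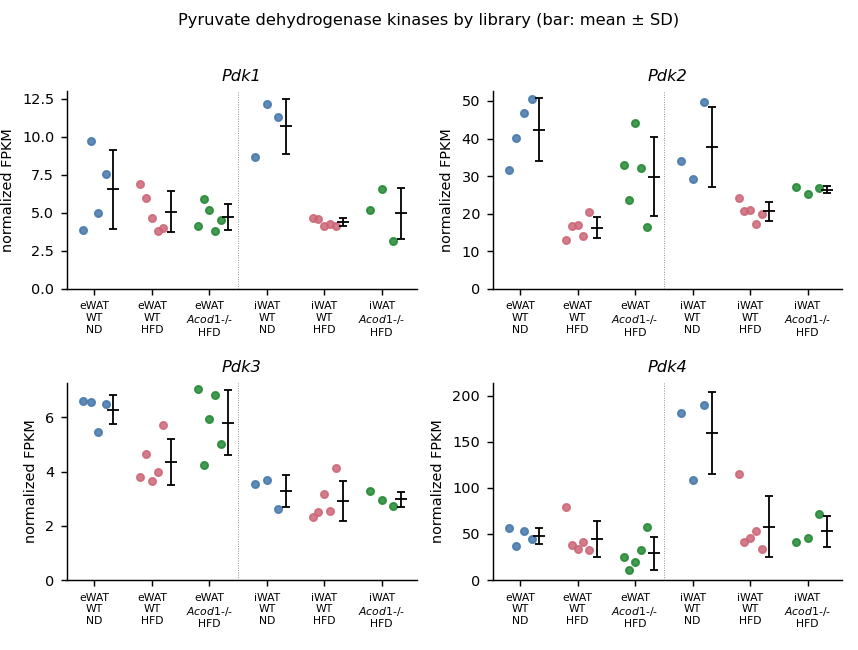
Normalized FPKM (y axis, linear from 0) of the 4 pyruvate dehydrogenase kinase genes in each library of the 6 groups (x axis), with points for libraries and bars for the mean ± SD. *Pdk4* stands at 109 to 190.3 in the 3 iWAT libraries on ND, and *Pdk2* at 13.1 to 20.4 in the 5 eWAT libraries of HFD-fed wild type mice, below the 31.7 to 50.6 on ND.

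Pyruvate carboxylase was called lower on HFD in eWAT and not in iWAT. In eWAT, *Pcx* levels were 158, 180.04, 213 and 349 in the ND libraries, 69.5, 137, 121, 143 and 119.8 in the wild type HFD libraries and 165, 239, 174, 156 and 159 in the *Acod1*-/- libraries. No HFD-fed wild type library reached the lowest ND library (log2 fold change -0.93 ± 0.25, adjusted p = 0.0094). Every *Acod1*-/- library was above every HFD-fed wild type library, but the adjusted p did not pass the threshold (log2 fold change 0.59 ± 0.23, adjusted p = 0.11). The iWAT libraries held *Pcx* at 115, 177 and 214 (ND), 129, 179, 202, 195 and 118 (HFD wild type) and 89.1, 122 and 175 (HFD *Acod1*-/-), with overlapping groups and an estimate by diet near 0 (log2 fold change -0.01 ± 0.28, adjusted p = 0.98). The difference between depots in the effect of diet was not called for *Pcx* (eWAT minus iWAT log2 fold change -0.89 ± 0.38, adjusted p = 0.1002), nor was that in the effect of genotype (log2 fold change 0.95 ± 0.37, adjusted p = 0.41). Relative to the mean of *Pdha1* and *Pdhb*, *Pcx* was 2.31 to 2.95 on ND and 1.67 to 2.42 on HFD in eWAT, and 1.21 to 1.57 and 1.57 to 2.55 in iWAT, in wild type mice.

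The mitochondrial malic enzymes, which return malate to pyruvate, were low. *Me2* ranged from 5.15 to 12.4 normalized FPKM and fell on HFD in iWAT by a margin at the threshold (log2 fold change -0.39 ± 0.18, adjusted p = 0.0984), a call kept under 9 of 19 alternatives. *Me3* was at most 0.217, and 1 iWAT library held no read of it. In iWAT, *Me3* levels were 0.217, 0.0374 and 0.117 in the ND libraries, 0.106, 0.108, 0.0814, 0.0707 and 0.0713 in the wild type HFD libraries and 0.0106, 0 and 0.0382 in the *Acod1*-/- libraries. All 3 *Acod1*-/- libraries were below all wild type HFD libraries, and the estimate was not called by edgeR (log2 fold change -2.38 ± 0.88, adjusted p = 0.21). DESeq2 gave an adjusted p of 0.066 and edgeR without *Acod1*-/- replicate 3 one of 0.042. *Me3* in eWAT was measured at 0.110, 0.0897, 0.0916 and 0.0881 on ND, at 0.133, 0.0899, 0.0313, 0.108 and 0.0979 on HFD in wild type and at 0.0256, 0.0578, 0.0392, 0.170 and 0.103 on HFD with *Acod1* loss, with overlapping groups.

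At the entry of the cycle, citrate synthase, a common measure of mitochondrial content, lay close to the threshold in several comparisons. *Cs* in eWAT was measured at 67.3, 72.2, 86.2 and 110.3 on ND, at 48.9, 64.04, 65.9, 70.5 and 64.2 on HFD in wild type and at 72.6, 135, 82.1, 74.8 and 77.5 on HFD with *Acod1* loss. All HFD-fed *Acod1*-/- libraries were above all HFD-fed wild type libraries, with an adjusted p of 0.102 (0.49 ± 0.19 on the log2 scale), and the estimate by diet had an adjusted p of 0.103 (-0.42 ± 0.20). In iWAT, *Cs* levels were 96.6, 109 and 149 in the ND libraries, 76.7, 88.3, 94.2, 103 and 78.5 in the wild type HFD libraries and 83.8, 120.5 and 112 in the *Acod1*-/- libraries, where the fall on HFD was called at an adjusted p of 0.0988 (-0.39 ± 0.18). That call was kept under 10 of 19 alternatives, and the largest adjusted p without 1 library came without iWAT ND replicate 3 (edgeR adjusted p = 0.355).

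*Aco1* encodes the cytosolic aconitase, which also acts as the iron-responsive regulator IRP1 when it has lost its iron-sulfur cluster. The eWAT libraries held *Aco1* at 42.98, 60.3, 47.6 and 65.6 (ND), 20.3, 33.4, 34.3, 34.2 and 29.1 (HFD wild type) and 45.8, 48.9, 56.2, 44.4 and 36.7 (HFD *Acod1*-/-). HFD-fed wild type libraries were below the ND and below the *Acod1*-/- libraries without overlap (log2 fold change -0.84 ± 0.18, adjusted p = 0.0026 by diet, log2 fold change 0.62 ± 0.17, adjusted p = 0.032 by genotype). In iWAT, *Aco1* levels were 41.8, 42.4 and 45.8 in the ND libraries, 32.9, 40.5, 46.2, 48.3 and 43.3 in the wild type HFD libraries and 40.7, 62.1 and 54.6 in the *Acod1*-/- libraries. There the groups overlapped (log2 fold change -0.01 ± 0.16, adjusted p = 0.98), and the effect of diet differed between depots (eWAT minus iWAT log2 fold change -0.80 ± 0.25, adjusted p = 0.023).

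The isocitrate dehydrogenases moved in different directions. *Idh1*, the cytosolic NADP-dependent enzyme that supplies reducing power, was the only member that rose on HFD in both depots. *Idh1* in eWAT was measured at 75.95, 71.2, 69.7 and 92.9 on ND, at 108, 122, 138, 140.5 and 122 on HFD in wild type and at 111, 151, 116, 93.1 and 126 on HFD with *Acod1* loss. The iWAT libraries held *Idh1* at 73.2, 73.8 and 83.7 (ND), 121, 142, 145, 146 and 126 (HFD wild type) and 113, 146 and 141 (HFD *Acod1*-/-). All HFD-fed wild type libraries were above all ND libraries in each depot (log2 fold change 0.70 ± 0.14, adjusted p = 0.0024 in eWAT, log2 fold change 0.85 ± 0.13, adjusted p = 0.00057 in iWAT), and *Acod1*-/- and wild type mice on HFD overlapped (-0.08 in eWAT, -0.05 in iWAT, neither called). *Idh2*, its mitochondrial NADP-dependent counterpart, rose with *Acod1* loss in eWAT (log2 fold change 0.42 ± 0.12, adjusted p = 0.036). In eWAT, *Idh2* levels were 46.9, 44.2, 46.6 and 35.2 in the ND libraries, 33.4, 42.2, 42.9, 41.8 and 43.1 in the wild type HFD libraries and 56.9, 54.9, 56.3, 62.7 and 42.7 in the *Acod1*-/- libraries, and *Acod1*-/- replicate 5 was the only one of its group within the wild type HFD range. The iWAT libraries held *Idh2* at 53.1, 43.1 and 57.2 (ND), 51.9, 64.03, 63.3, 57.4 and 75.01 (HFD wild type) and 79.8, 69.1 and 75.3 (HFD *Acod1*-/-), with a call on HFD at the threshold (log2 fold change 0.32 ± 0.14, adjusted p = 0.0981) that was kept under 5 of 19 alternatives.

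The NAD-dependent enzyme of the cycle is built from *Idh3a*, *Idh3b* and *Idh3g*. In eWAT, *Idh3b* levels were 46.1, 46.3, 59.2 and 71.7 in the ND libraries, 37.01, 43.1, 40.2, 45.95 and 42.4 in the wild type HFD libraries and 49.7, 72.7, 55.6, 53.8 and 41.97 in the *Acod1*-/- libraries. Wild type libraries on HFD were below those on ND without overlap (log2 fold change -0.42 ± 0.16, adjusted p = 0.051), and the genotype estimate was not called (log2 fold change 0.39 ± 0.15, adjusted p = 0.109). *Idh3b* in iWAT was measured at 62.1, 73.6 and 111 on ND, at 49.1, 53.6, 55.1, 57.5 and 46.6 on HFD in wild type and at 54.5, 63.96 and 62.6 on HFD with *Acod1* loss, again without overlap between diets (log2 fold change -0.62 ± 0.17, adjusted p = 0.014). The catalytic *Idh3a* was not called by diet in either depot (0.34 in eWAT and 0.03 in iWAT), and *Idh3g* fell in iWAT (log2 fold change -0.42 ± 0.16, adjusted p = 0.056). As a ratio of levels, *Idh1* over *Idh3a* was 1.498 to 1.86 on ND and 1.92 to 2.64 on HFD in wild type eWAT, and 0.773 to 1.02 and 1.55 to 1.66 in wild type iWAT, without overlap in either depot.

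Oxoglutarate dehydrogenase fell on HFD in both depots. *Ogdh* in eWAT was measured at 66.6, 64.5, 69.8 and 88.7 on ND, at 38.7, 54.04, 47.2, 42.6 and 52.4 on HFD in wild type and at 56.5, 63.4, 63.5, 49.7 and 62.1 on HFD with *Acod1* loss. The iWAT libraries held *Ogdh* at 86.05, 77.7 and 124 (ND), 55.1, 63.4, 66.02, 62.96 and 64.4 (HFD wild type) and 62.6, 68.1 and 91.7 (HFD *Acod1*-/-). *Ogdh*, the decarboxylating subunit, was lower in every HFD-fed wild type library than in any ND library of its depot (log2 fold change -0.62 ± 0.13, adjusted p = 0.0029 in eWAT, log2 fold change -0.59 ± 0.18, adjusted p = 0.022 in iWAT), and its estimate by genotype in eWAT missed the threshold (log2 fold change 0.33 ± 0.13, adjusted p = 0.101). In eWAT, *Dlst* levels were 21.5, 23.4, 28.6 and 29.4 in the ND libraries, 15.4, 17.7, 18.7, 17.6 and 18.5 in the wild type HFD libraries and 22.9, 30.8, 27.99, 22.9 and 20.4 in the *Acod1*-/- libraries. *Dlst*, the succinyltransferase core of the same complex, fell on HFD (log2 fold change -0.55 ± 0.14, adjusted p = 0.0066) and rose with *Acod1* loss (log2 fold change 0.51 ± 0.13, adjusted p = 0.025), without overlap between the groups of either comparison. *Dlst* in iWAT was measured at 27.8, 32.8 and 46.1 on ND, at 22.04, 23.6, 26.3, 23.99 and 25.4 on HFD in wild type and at 26.9, 30.5 and 30.7 on HFD with *Acod1* loss, with a fall on HFD (log2 fold change -0.52 ± 0.16, adjusted p = 0.021) and no call by genotype (adjusted p = 0.45), although all 3 *Acod1*-/- libraries were above the 5 wild type libraries.

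Succinyl-CoA synthetase has a shared subunit, *Suclg1*, and 2 alternative partners, *Sucla2* for the ADP-forming and *Suclg2* for the GDP-dependent, GTP-forming enzyme. *Suclg2* was called in 3 comparisons and *Sucla2* in none of those by diet or genotype. *Suclg2* in eWAT was measured at 13.97, 17.9, 20.1 and 20.7 on ND, at 8.88, 11.6, 11.96, 10.04 and 11.5 on HFD in wild type and at 15.01, 15.7, 19.2, 14.4 and 11.8 on HFD with *Acod1* loss. The diets did not overlap (log2 fold change -0.75 ± 0.15, adjusted p = 0.002), and it rose with *Acod1* loss (log2 fold change 0.50 ± 0.14, adjusted p = 0.038), with *Acod1*-/- replicate 5 within the range of the wild type HFD libraries. In iWAT, *Suclg2* levels were 17.5, 20.03 and 23.7 in the ND libraries, 10.6, 13.6, 11.6, 12.4 and 14.8 in the wild type HFD libraries and 17.5, 17.8 and 15.9 in the *Acod1*-/- libraries, with a fall on HFD (log2 fold change -0.66 ± 0.13, adjusted p = 0.0028) and, by genotype, no overlap and an adjusted p of 0.18. *Sucla2* was not called by diet or genotype (0.09 and 0.08 in eWAT, -0.39 and -0.12 in iWAT), nor was *Suclg1*. *Sucla2* over *Suclg2* was 1.82 to 2.65 on ND, 3.61 to 5.12 on HFD in wild type and 2.28 to 4.49 on HFD with *Acod1* loss in eWAT. In iWAT the ratio overlapped between the diets, at 3.17 to 4.99 on ND and 3.89 to 5.61 on HFD in wild type.

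In complex II, *Sdha*, the flavoprotein that oxidizes succinate, was the subunit called by diet in both depots and by genotype in eWAT. In eWAT, *Sdha* levels were 131, 134, 168 and 192 in the ND libraries, 72.4, 95.2, 88.3, 103 and 82.2 in the wild type HFD libraries and 119, 126, 130.3, 126 and 105 in the *Acod1*-/- libraries. HFD-fed wild type libraries lay below both other groups without overlap (log2 fold change -0.82 ± 0.14, adjusted p = 0.00088 by diet, log2 fold change 0.46 ± 0.13, adjusted p = 0.041 by genotype). *Sdha* in iWAT was measured at 177, 182 and 272 on ND, at 99.03, 122, 137, 130.01 and 128 on HFD in wild type and at 112, 154 and 172 on HFD with *Acod1* loss, with a fall on HFD and no overlap (log2 fold change -0.74 ± 0.19, adjusted p = 0.01). *Sdhb*, the iron-sulfur subunit, fell on HFD in iWAT (log2 fold change -0.56 ± 0.16, adjusted p = 0.017) and not in eWAT (log2 fold change -0.05 ± 0.20, adjusted p = 0.85), a difference between depots that was not called (adjusted p = 0.17). The eWAT libraries held *Sdhb* at 50.9, 48.2, 62.8 and 71.1 (ND), 50.8, 54.9, 51.3, 65.3 and 58.8 (HFD wild type) and 63.9, 120.1, 75.1, 69.99 and 53.3 (HFD *Acod1*-/-). In iWAT, *Sdhb* levels were 76.8, 88.5 and 125 in the ND libraries, 53.6, 69.3, 63.5, 68.5 and 66.95 in the wild type HFD libraries and 91.3, 94.4 and 75.3 in the *Acod1*-/- libraries. The membrane anchors *Sdhc* and *Sdhd* were not called by diet or genotype in either depot. In eWAT, *Sdha* relative to the mean of *Sdhb*, *Sdhc* and *Sdhd* was 1.77 to 2.03 on ND, 0.99 to 1.31 on HFD in wild type and 0.919 to 1.36 on HFD with *Acod1* loss. In iWAT it was 1.73 to 2.14, 1.21 to 1.46 and 1.05 to 1.69. This ratio was chosen after its values were seen.

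The promoters of the members were searched for motifs of regulators of mitochondrial genes, as a description without a test. RefSeq promoter sequences (GRCm38.p6) were found for 31 of the 35 members, and the 250 bases before the start were read on both strands. The nuclear receptor motif TCAAGGTCA, bound by estrogen-related receptors, was in none of the 31 and in 0.422% of 27025 genes, and its shorter form AAGGTCA, which lies within it, in none of the 31 and in 4.70% of genes. The NRF1 motif, spelled GCGCA, any base, GCGC, was in 3 members, *Sucla2*, *Sdha* and *Sdhd*, or 9.68% of the 31, against 4.23% of all genes. *Sdha* (chromosome 13, 74322254 to 74350280, minus strand) fell on HFD while *Sdhd* (chromosome 9, 50596357 to 50603812, minus strand) and *Sucla2* did not pass the test. Matches were found before the RefSeq starts of *Sdha* and *Sdhd*, 3 of them for *Sdha*. The *Sdha* match nearest to that start, 10 to 1 bases before it, lies within the gene coordinates given here. The match farthest from each start is shown 5′ to 3′ on the gene's strand with the motif in capitals, as chr13:74350309-74350358 and chr9:50603899-50603948, which lie upstream of the annotated genes.
Sdha: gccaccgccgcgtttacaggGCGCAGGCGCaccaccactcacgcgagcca
Sdhd: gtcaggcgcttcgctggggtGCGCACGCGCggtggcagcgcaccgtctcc
A match of letters is a description of the sequence and not a site of binding, and the start used for *Sdhd* was not matched to a GENCODE transcript.

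**Figure D3:**
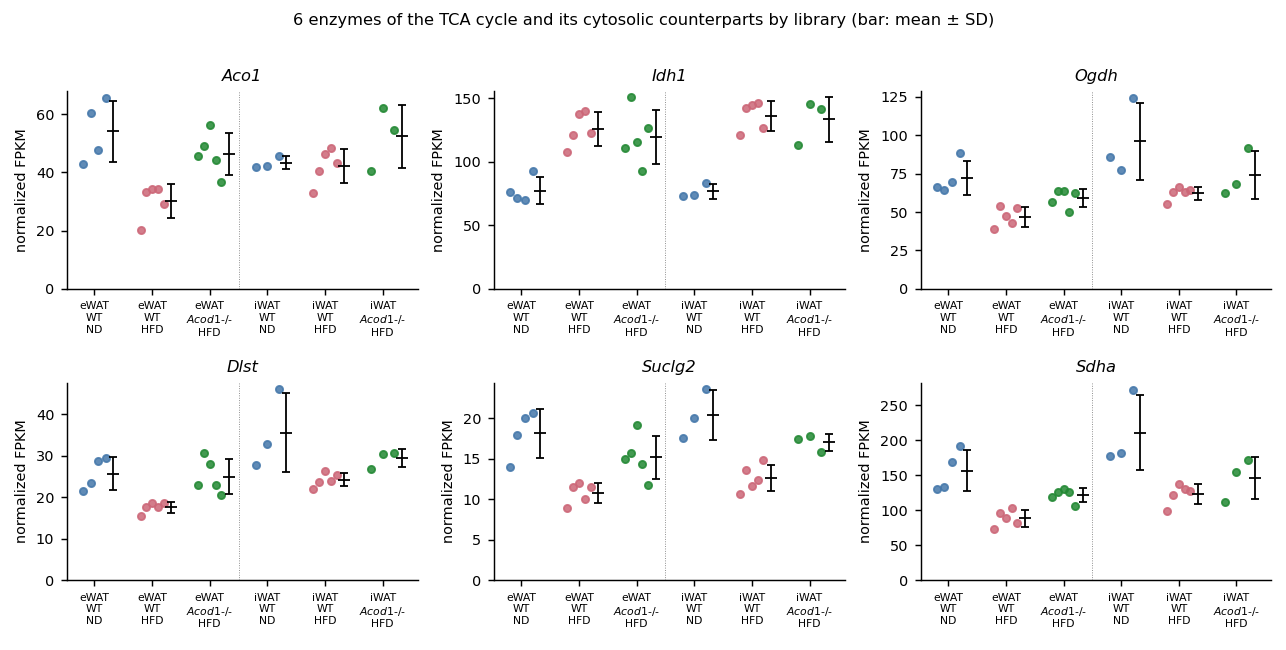
Normalized FPKM (y axis, linear from 0) of 6 members in each library of the 6 groups (x axis), with points for libraries and bars for the mean ± SD. In eWAT, *Sdha* stands at 72.4 to 103 in HFD-fed wild type mice, below the 131 to 192 on ND and values from 105 to 130.3 with *Acod1* loss, whereas *Idh1* is higher on HFD in both depots.

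The last steps of the cycle held few calls. Fumarase (*Fh1*) rose with *Acod1* loss in eWAT (log2 fold change 0.53 ± 0.16, adjusted p = 0.048) and was not called by diet in either depot. Malate dehydrogenases *Mdh1* (cytosolic) and *Mdh2* (mitochondrial) were not called by diet or genotype in either depot, with estimates by diet of -0.08 and 0.05 in eWAT and 0.33 and -0.002 in iWAT. *Mdh1* had the highest median level of the 35, at 208 normalized FPKM over the 25 libraries. *Fh1*, *Pdha1*, *Pcx*, *Idh3b*, *Sucla2* and *Mdh1* overlap a protein-coding gene on the other strand. Because the strand setting of the counting is not given in the sources used here, reads of such partners cannot be told apart.

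**Figure D4:**
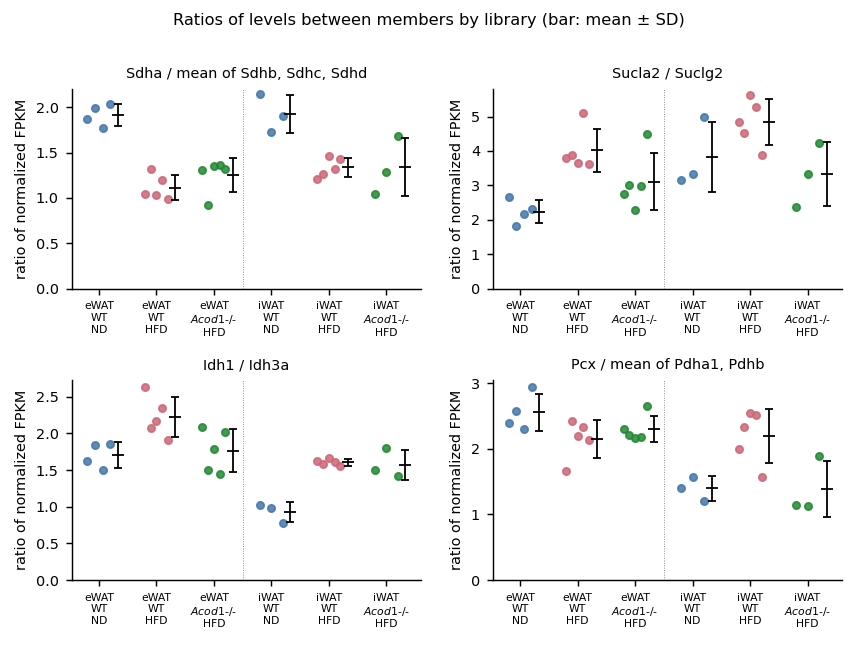
Ratio of normalized FPKM between members (y axis, linear from 0) in each library of the 6 groups (x axis), with points for libraries and bars for the mean ± SD. In wild type eWAT and iWAT the ratio of *Sdha* to the other complex II genes is lower on HFD than on ND in every library, and that of *Idh1* to *Idh3a* is higher.

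The study names 8 of the members, *Aco1*, *Dlst*, *Suclg2*, *Cs*, *Sdha*, *Dld*, *Idh3b* and *Ogdh*, for this pair of comparisons in eWAT. They were chosen on these same libraries, so their counts are not independent evidence of a direction. In eWAT edgeR called 7 of these 8 lower on HFD and 5 higher by genotype. The study used DESeq2, so the difference in method bears on these counts. DESeq2 also called *Cs* lower on HFD (adjusted p = 0.089). By genotype it also called *Cs*, *Idh3b* and *Ogdh* higher (DESeq2 adjusted p = 0.056, 0.073 and 0.052). Of the other 27 members, 5 were called lower and 1 higher on HFD, and 5 higher by genotype, with medians of -0.09 and 0.38 on the log2 scale. Of all genes, 26.9% were called lower and 24.8% higher on HFD and 9.13% higher by genotype, with medians of -0.04 and 0.04. The share of these 27 called lower on HFD in eWAT was thus below that of all genes. In iWAT, 6 of the 8 and 9 of the 27 were called lower on HFD (24.2% of all genes).

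HFD-fed *Acod1*-/- mice were then compared directly with ND-fed wild type mice, which differ in both diet and genotype. In eWAT, 4 members were called higher (13.5% of all genes) and 1 lower (13.0%). *Mpc2* and *Idh1* were higher (0.63 for *Idh1*, adjusted p = 0.016), as were *Idh2* (0.34, adjusted p = 0.081) and *Idh3a* (0.60, adjusted p = 0.039), and *Sdha* was lower (-0.37, adjusted p = 0.086). With the series as a term, 1 member was called (607 higher and 441 lower of 14936 genes), and 3 were called without ND replicate 2 or 3 or without *Acod1*-/- replicate 1, 2 or 4. Those fits called from 1291 genes higher and 1239 lower of 14758 (without ND replicate 2) to 1880 and 1649 of 14987 (without *Acod1*-/- replicate 1). In iWAT, 3 were called higher (18.5%) and 6 lower (16.1%). *Pdk1* (-1.11, adjusted p = 0.0035), *Pdk2* (-0.51, adjusted p = 0.065) and *Pdk4* (-1.58, adjusted p = 0.02) were lower together with *Pdp2*, *Me2* and *Me3*, and *Pdp1*, *Idh1* and *Idh2* were higher. Without ND replicate 1, 14 members were called, and without ND replicate 2, 5 were. The calls over all genes moved too, to 2309 higher and 2013 lower of 14669, and to 1662 and 1631 of 14709.

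Between depots, members were mostly lower in eWAT than in iWAT of wild type mice. On ND, 16 were called lower in eWAT (14.2% of all genes) and 2 higher (17.5%), in a fit of all 25 libraries. *Pdk4* differed most among the members called lower (log2 fold change -1.75 ± 0.45, adjusted p = 0.0069), followed by *Sucla2* (-0.99, adjusted p = 0.0013) and *Idh3a* (-0.90, adjusted p = 0.0015), and *Pdk3* (0.94, adjusted p = 0.0029) and *Pdp1* (0.57, adjusted p = 0.042) were higher in eWAT. The total of 18 calls moved with single libraries. Without iWAT ND replicate 3, 3 were called lower and 1 higher (1802 and 1826 of 15024 genes). Without eWAT ND replicate 1, 10 were called lower and 1 higher (1850 and 2207 of 15017 genes). Replicate 3 of iWAT on ND had the highest brown adipocyte sum, and its part in these calls was not tested. On HFD, 12 were called lower in wild type eWAT (7.75%) and 1 higher (10.8%), led by *Idh2* (log2 fold change -0.62 ± 0.12, adjusted p = 0.0019), and *Dlat*, *Cs*, *Idh3a*, *Ogdh*, *Dlst*, *Suclg1*, *Sucla2* and *Sdha* were lower on both diets. Calls in either direction, 13 in total, were 5 without eWAT HFD replicate 1 and 8 without replicate 3. They were 5 without iWAT HFD replicate 3 and 7 without replicates 2 or 4. In the order of mention, these fits called 1035 genes higher and 637 lower, 1816 and 971, 1276 and 723, 1373 and 784, and 1626 and 986. In *Acod1*-/- mice on HFD, 2 members differed (3.81% of all genes), *Pdk3* (log2 fold change 0.96 ± 0.21, adjusted p = 0.014) and *Idh2* (log2 fold change -0.45 ± 0.13, adjusted p = 0.084). Leaving out eWAT replicate 1, 2, 3 or 5 or iWAT replicate 1 or 2 left 1 call. Those fits called from 93 genes higher and 72 lower (without iWAT replicate 2) to 322 and 254 (without eWAT replicate 3). *Pdk3* was higher in eWAT in all 3 settings.

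**Figure D5:**
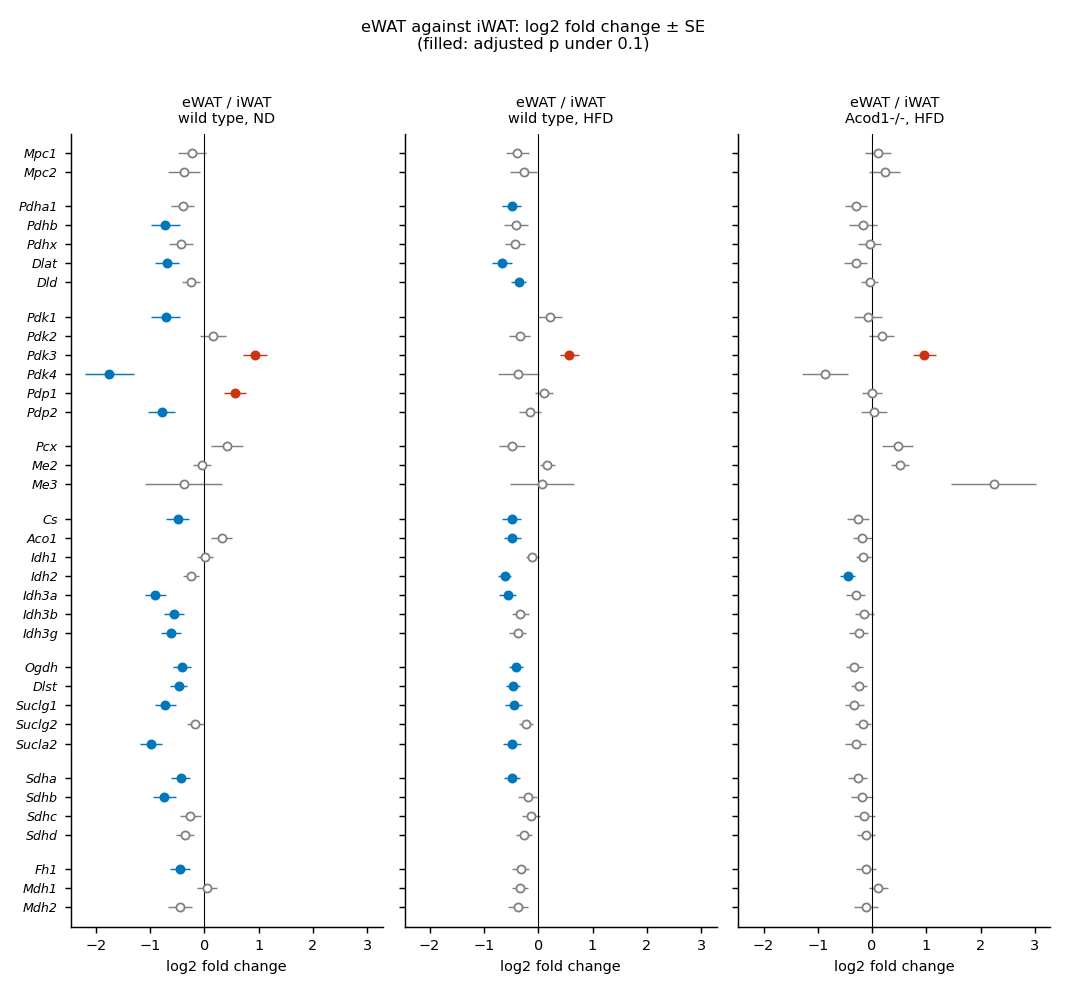
Log2 fold change (x axis) ± SE of eWAT against iWAT for each of the 35 members (y axis, ordered by role) in the 3 settings (wild type on ND, wild type on HFD, *Acod1*-/- on HFD), with filled symbols for an adjusted p under 0.1 (red higher in eWAT, blue lower). In eWAT, 16 members are lower on ND, 12 on HFD in wild type and 1 on HFD in *Acod1*-/- mice, and *Pdk3* is higher in each.

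Around the cycle, 43 further genes were followed, of which 41 were tested in each depot. On HFD, 13 were called lower and 9 higher in eWAT (26.9% and 24.8% of all genes), and 14 lower and 6 higher in iWAT (24.2% and 25.9%). By genotype, 10 were called higher and 3 lower in eWAT (9.13% and 10.8%), and none in iWAT by edgeR, where 9 had an unadjusted p under 0.05. Carriers and anaplerotic enzymes included *Mmut* (*Mut* in the annotation), methylmalonyl-CoA mutase, which feeds succinyl-CoA to the cycle, and it fell on HFD and rose with *Acod1* loss in eWAT (log2 fold change -0.86, adjusted p = 0.00051, and 0.63, adjusted p = 0.012). Among other oxoacid enzymes, *Dhtkd1*, an oxoadipate dehydrogenase related to *Ogdh*, did likewise (-1.75, adjusted p = 0.00061, and 1.21, adjusted p = 0.014), as did *Ldhb*, which favours lactate oxidation (-0.996, adjusted p = 0.0024, and 0.94, adjusted p = 0.014). *Pck1*, which makes phosphoenolpyruvate for glyceroneogenesis, had the smallest adjusted p of these genes on HFD in iWAT (log2 fold change -2.11 ± 0.30, adjusted p = 0.0004). In eWAT it fell on HFD (-2.16, adjusted p = 0.0019) and rose by genotype (1.69, adjusted p = 0.02). By genotype in iWAT, the smallest adjusted p-values were those of *Pck1* (1.496, adjusted p = 0.14), *Dhtkd1* (0.99, adjusted p = 0.14) and *Sdhaf3* (-0.62, adjusted p = 0.14). *Ppargc1a*, the coactivator of mitochondrial biogenesis, fell on HFD in eWAT (log2 fold change -0.64 ± 0.26, adjusted p = 0.062) and in iWAT (log2 fold change -1.03 ± 0.27, adjusted p = 0.012) and was not called by genotype (0.64 in eWAT with adjusted p = 0.106, 0.85 in iWAT with adjusted p = 0.17).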

How the data were processed

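Messenger RNA libraries of eWAT and iWAT were made with a directional kit, and per the labels and methods the authors trimmed reads with cutadapt, aligned them with STAR to GRCm38/mm10 and deposited raw counts per gene together with FPKM values. The counting program and its strand setting are not given in the sources used here. The deposited FPKM could be recomputed from counts and cDNA length within 0.0005. The 5 classes of reads on no gene (no feature 6.41% to 11.9%) stayed out of the library sizes.

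Counts were fitted with edgeR 4.0.16 in R 4.3.3 (quasi-likelihood test, TMM), 1 fit of 3 groups per depot and 1 fit of all 25 libraries for depots and interactions, with genes kept where their mean CPM was 1 or more (14936, 14801 and 15034 genes). P-values were adjusted by Benjamini-Hochberg over these genes, and an adjusted p under 0.1 was called. Alternatives were DESeq2 1.42.0, other filters, scalings and samples, and the fits were tested on simulated data. Figures used matplotlib 3.10.9. The labels do not say that libraries come from separate animals, but the mouse numbers that the paper gives per group equal the library numbers. Within a depot, p-values therefore measure the spread between libraries of 1 mouse each, by the paper's numbers. The members, the lists and the tests were chosen with earlier results of these data known. Values in every library are given for *Pdk4*, *Pcx*, the 8 members the study names and, in each comparison of diet and genotype, the 4 members with the smallest adjusted p. Of the wider lists, the 3 with the smallest adjusted p per comparison and *Ppargc1a* are given. A comparison of the members' protein sequences was not run.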

Additional observations from a re-analysis of the deposited data

Results flagged for a closer look

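For 20 of 140 combinations of member and group of 4 or 5 libraries, 1 library lay far from the others, measured as its gap to the nearest library divided by the range of the group. Chance gives such a gap in about 1 in 20 groups, and the members of a library are not independent. Most came from 3 libraries. In HFD-fed *Acod1*-/- eWAT, replicate 2 was the highest for *Mpc1* (0.714), *Mpc2* (0.838), *Dld* (0.875), *Pcx* (0.780), *Cs* (0.848), *Idh3a* (0.753), *Sdhd* (0.873) and *Mdh2* (0.826). It also had the highest share of mitochondrial reads, 13.2%. Its summed brown adipocyte markers were 261 normalized FPKM, against 52.4, 53.2, 54.3 and 67.1 in replicates 1, 3, 4 and 5 of that group. In HFD-fed wild type eWAT, replicate 1 was the lowest for *Pdha1* (0.787), *Idh2* (0.871) and *Idh3a* (0.765) and the highest for *Pdk4* (0.820) and *Pdp1* (0.782). Replicate 1 of HFD-fed wild type iWAT was the lowest for *Mpc1* (0.720), *Pdha1* (0.852), *Ogdh* (0.719) and *Suclg1* (0.744) and the highest for *Pdk4* (0.760). In ND-fed eWAT, replicate 3 was the lowest for *Pdk3* (0.921), and replicate 1 was the highest for *Me3* (0.844).

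The effect of HFD in wild type mice differed between the depots for 3 members by the interaction term of the edgeR fit. The eWAT effect minus the iWAT effect was 0.93 on the log2 scale for *Pdk1* (adjusted p = 0.056), 1.38 for *Pdk4* (adjusted p = 0.093) and -0.80 for *Aco1* (adjusted p = 0.023).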

How the results depend on the processing

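The calls of members by diet in eWAT were within 1.5 times the reported 13 under every alternative, and leaving out 1 library gave 11 to 17. Over all genes, leaving out 1 library gave from 3319 higher and 3311 lower to 3871 and 4125. By genotype in eWAT, 10 became 6 with no filter on low counts, 19 with DESeq2, 17 with the HFD libraries of the first series, 19 without the 3 libraries with epididymis markers (chosen after seeing the data) and 4 to 20 without 1 library. The calls over all genes moved under these settings too. They were 1117 higher and 1387 lower of 34256 with no filter, and 1763 and 1930 of 14936 with DESeq2. In iWAT, the 18 calls by diet became 11 with the series as a term and 15 to 22 without 1 library, and the 0 by genotype became 2 with DESeq2, 4 within the first series and 0 to 5 without 1 library. Without 1 library, the calls by diet over all genes in iWAT went from 2816 higher and 2649 lower to 4039 and 4072. For HFD *Acod1*-/- against ND, the 5 calls in eWAT became 3 at an adjusted p under 0.05 or with no filter, 1 with the series and 3 to 7 without 1 library, and the 9 in iWAT 5 with the series, 4 with the 2 groups alone and 5 to 14. Over all genes, eWAT with no filter gave 1305 higher and 1370 lower of 34256. For iWAT it was 2234 and 1865 of 14801 with the series, and 1530 and 1744 of 15045 with the 2 groups alone. Between depots, the counts without 1 library were 4 to 22 on ND, 5 to 15 on HFD in wild type, 1 to 3 in *Acod1*-/-, 1 to 6 for the interaction with diet and 0 to 1 for that with genotype. In the same order, calls over all genes went from 1499 higher and 1432 lower to 2856 and 2205, and from 1035 and 637 to 1828 and 1177. The next ranges were 93 and 72 to 533 and 500, 1549 and 1414 to 2295 and 2376, and 0 and 1 to 161 and 230. The 13 on HFD became 7 at an adjusted p under 0.05 or with no filter, the 2 in *Acod1*-/- 1 under those settings, with 1 CPM in every library or with the series, and 4 with DESeq2, and the 3 of the interaction with diet 1 at an adjusted p under 0.05. With no filter, 1259 genes were called higher and 704 lower of 36252 on HFD in wild type, and 246 and 226 in *Acod1*-/-. In *Acod1*-/-, 122 and 126 of 11810 were called with 1 CPM in every library. The series gave 317 and 254 there, and DESeq2 530 and 362, of 15034. Calls over all genes at an adjusted p under 0.05 were not counted. The cause was not tested.

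Whether replicate numbers pair the libraries is not given by the labels and was not settled here. Between groups of a depot, same-numbered libraries had correlations of -0.27 to 0.31, with 11 of 22 over 0.1, against 20 of 82 for different numbers. The medians were 0.096 and -0.013. Between depots, same-numbered libraries of the same diet and genotype had correlations of -0.14 to 0.57, with 6 of 11 over 0.1, against 10 of 41 for different numbers. The medians were 0.134 and -0.045. Same-numbered libraries were thus correlated more often, and taking the depots as independent is an assumption. With a replicate block, 3 members were called in eWAT of *Acod1*-/- on HFD against ND, 1 between depots in *Acod1*-/- and 5 for the interaction of depot and diet, and other counts stayed within 1.5 times. With a block by replicate number within each diet and genotype across depots, 23 differed between depots on HFD in wild type, 7 in the interaction with diet and 3 in that with genotype, where none was called without it. Over all 15034 genes, that block called 1934 higher and 1718 lower between depots on HFD in wild type. It called 2086 and 2453 in the interaction with diet, and 156 and 328 in that with genotype. The replicate block called 1340 higher and 1322 lower of 14936 genes in eWAT of *Acod1*-/- on HFD against ND. It called 207 and 148 between depots in *Acod1*-/-, and 2098 and 2331 for the interaction of depot and diet, of 15034.

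Directions that turned belong to estimates that were not called. By diet in eWAT, with the series as a term, *Pdk4* was 0.47 and *Me3* 0.20, and without 1 library they ranged from -0.38 to 0.0199 and -0.22 to 0.18, and *Sdhb* from -0.13 to 0.056. By genotype in eWAT, the ranges without 1 library were -0.20 to 0.021 for *Pdk1*, -0.70 to 0.0093 for *Me3* and -0.18 to 0.0026 for *Idh1*. By diet in iWAT, *Pcx* was 0.058 with the replicate block and 0.099 with the series (-0.23 to 0.18 without 1 library), *Me3* 0.12 and 0.54, and *Aco1* 0.079 with the series (-0.076 to 0.075). By genotype in iWAT, *Dld* was -0.00991 within the first series, and the ranges were -0.068 to 0.43 for *Pdk1*, -0.42 to 0.25 for *Pdk4* and -0.10 to 0.088 for *Idh1*. *Me3* was at most 0.217 normalized FPKM in any library.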

Other observations

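Of 7 genes that assemble complex II or attach lipoate to the dehydrogenase complexes, 5 were called higher and none lower on HFD in eWAT (24.8% of all genes were called higher), and 2 higher and none lower in iWAT (25.9%). The iWAT share is near that of all genes. *Sdhaf3*, a factor for the iron-sulfur subunit, had log2 fold changes of 0.98 ± 0.18 in eWAT (edgeR adjusted p = 0.0014) and 1.04 ± 0.15 in iWAT (adjusted p = 0.00044). *Sdhaf4*, which acts on the flavoprotein encoded by *Sdha*, had 1.001 ± 0.20 (adjusted p = 0.002) and 0.81 ± 0.14 (adjusted p = 0.0014). *Sdhaf1* and *Sdhaf2* rose in eWAT (0.51 and 0.28, adjusted p = 0.035 and 0.03), as did *Lipt2*, a lipoyl transferase (0.75, adjusted p = 0.019). None of the 7 was called by *Acod1* genotype in eWAT or iWAT by edgeR. The smallest unadjusted p was that of *Sdhaf3* in iWAT, 0.0013, with a log2 fold change of -0.62 and an adjusted p of 0.14.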
